A study of Rattus norvegicus with 9 samples.

Results

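Genes of the major histocompatibility complex (MHC) and of antigen processing were followed in 9 RNA-seq libraries of primary neonatal rat heart cells. The members were every row whose symbol begins with RT1-, the prefix of the rat MHC, together with 14 named genes of peptide production, transport, loading and MHC regulation. The tables held 61 members among 14607 genes. Of these, 48 were RT1 genes, 39 of class I and 9 of class II by symbol, and the split matched the pathway annotation carried by the tables for all 39 and all 9. The other 13 were Tap1, Tap2, Tapbp, Tapbpl, Erap1, Psmb8, Psmb9, Psmb10, Psme1, Psme2, B2m, Ciita and Cd74. Nlrc5, the class I transactivator, is part of the definition but was not analysed here.

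The cells were cardiomyocytes of wild-type SD rats aged 1 to 2 days, dissociated from the heart with pancreatic enzymes and type II collagenase. Cells took up virus for 16 h and were then kept 48 h in medium with 10% fetal bovine serum. The lenti-TCF7L2 group received a virus that overexpresses TCF7L2, a DNA-binding factor of the Wnt pathway, the lenti-shTCF7L2 group a virus carrying a hairpin against it, and the lenti-NC group the vector control, with 3 libraries each. All groups, the control included, were thus exposed to a lentivirus, and no library of uninfected cells was used here. The labels do not say whether the replicates were separate isolations, so p-values measure the spread between these samples, which may be technical.

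MHC class I molecules are heavy chains that pair with the light chain B2m and show fragments of proteins made inside the cell to cytotoxic T cells. Proteasomes cut the fragments, the Tap1 and Tap2 transporter carries them into the endoplasmic reticulum, and Tapbp (tapasin), Tapbpl and the trimming enzyme Erap1 help to load them. Class II molecules are made mainly by professional antigen-presenting cells under the control of Ciita, travel with the invariant chain Cd74, and show fragments of engulfed proteins to helper T cells. Interferons raise class I, its transporter and the immunoproteasome subunits Psmb8, Psmb9 and Psmb10 in many cell types, the heart muscle cell among them.

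All 44 RT1 members that matched a RefSeq gene lay on chromosome 20 of the rat. RT1-A, RT1-Cl, RT1-EC2 and RT1-N1 matched no gene there. RefSeq promoter windows of the GRCr8 build, 250 bases before to 50 after the start, were at hand for 50 of the 61 members. Class I promoters are known for an upstream pair of elements, enhancer A, bound by NF-kB and related factors, and an interferon element beside it. The letters GGGATTCCC, the core of enhancer A, occurred on either strand in 8 member windows, all of class I, and in 0.365% of all 33469 windows. The letters GTTTCACTT, the core of the class I interferon element, occurred in 13 member windows, all of class I, and in 0.385% of all windows. The 8 windows with enhancer A are shown because they belong to genes that did not all move alike, and 7 of them hold both cores, RT1-CE4 only the first; each line gives 60 bases with the build, strand and position, and capitals mark GGGATTCCC and GTTTCACTT.
RT1-A1, chr20:4907074-4907133, plus strand: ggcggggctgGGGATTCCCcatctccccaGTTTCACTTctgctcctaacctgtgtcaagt
RT1-A2, chr20:4872688-4872747, plus strand: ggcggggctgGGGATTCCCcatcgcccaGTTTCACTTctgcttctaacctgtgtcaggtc
RT1-A3, chr20:4849272-4849331, plus strand: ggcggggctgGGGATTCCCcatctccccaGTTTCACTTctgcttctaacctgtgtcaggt
RT1-CE16, chr20:3265524-3265583, minus strand: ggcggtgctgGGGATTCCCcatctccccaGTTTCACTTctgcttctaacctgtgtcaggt
RT1-CE13, chr20:3322874-3322933, minus strand: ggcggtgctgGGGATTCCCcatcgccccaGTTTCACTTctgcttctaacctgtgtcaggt
RT1-CE11, chr20:3363322-3363381, minus strand: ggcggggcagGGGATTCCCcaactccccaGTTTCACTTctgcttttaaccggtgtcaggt
RT1-CE10, chr20:3385123-3385182, minus strand: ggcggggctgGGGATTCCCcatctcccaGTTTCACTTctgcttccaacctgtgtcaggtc
RT1-CE4, chr20:3509300-3509359, minus strand: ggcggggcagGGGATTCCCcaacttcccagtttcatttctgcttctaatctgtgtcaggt

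The general interferon-stimulated response element, searched as TTTCNNTTT on both strands, occurred in 15 member windows and in 11.8% of all windows. The 15 were those of B2m, Tap1, Tap2, Tapbp, Tapbpl, Psmb8, Psmb10, Psme2, 6 class I genes (RT1-M3-1, RT1-N3, RT1-S2, RT1-S3, RT1-T24-1 and RT1-T24-3) and the class II gene RT1-DOa. A stretch can match both this motif and GTTTCACTT. The gamma-activated site letters TTCNNNGAA occurred in 2 member windows, of RT1-M3-1 and Psmb8, against 8.87% of all windows, and the TCF and LEF letters CTTTGAT in 1, of Psme2, against 3.63% of all windows. Tap1 and Psmb9 are neighbours that point away from each other, so their windows overlap by 44 bases. They are shown whole, with RT1-Bb. In size, these 3 genes had the largest log2 differences of their roles between lenti-TCF7L2 and lenti-NC libraries. Capitals in the Tap1 window mark TTTCNNTTT, and the Psmb9 and RT1-Bb windows held none of the motifs searched apart from CCAAT, which 37.5% of all windows and 33 of the 50 member windows held. These matches describe letters, not bound sites.
Tap1, chr20:4668494-4668793, minus strand: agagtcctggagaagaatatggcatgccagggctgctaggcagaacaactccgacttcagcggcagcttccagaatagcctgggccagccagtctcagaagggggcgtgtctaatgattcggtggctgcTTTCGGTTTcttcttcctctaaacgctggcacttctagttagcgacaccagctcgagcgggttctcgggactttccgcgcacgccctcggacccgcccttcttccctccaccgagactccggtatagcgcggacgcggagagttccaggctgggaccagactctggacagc
Psmb9, chr20:4668750-4669049, plus strand: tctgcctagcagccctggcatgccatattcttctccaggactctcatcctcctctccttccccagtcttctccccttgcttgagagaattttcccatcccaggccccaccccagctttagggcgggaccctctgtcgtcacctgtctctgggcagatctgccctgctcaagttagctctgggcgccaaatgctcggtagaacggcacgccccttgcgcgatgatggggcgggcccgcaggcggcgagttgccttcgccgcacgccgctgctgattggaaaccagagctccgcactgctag
RT1-Bb, chr20:4604069-4604368, minus strand: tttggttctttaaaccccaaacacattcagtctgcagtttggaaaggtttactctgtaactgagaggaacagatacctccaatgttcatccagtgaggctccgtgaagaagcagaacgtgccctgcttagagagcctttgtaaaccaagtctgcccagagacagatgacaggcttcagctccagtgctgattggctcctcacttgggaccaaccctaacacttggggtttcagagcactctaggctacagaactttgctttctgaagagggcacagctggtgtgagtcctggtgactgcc

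The libraries held 15085922 to 16478295 expected counts each. Tcf7l2 had 141.8, 205.9 and 85.7 CPM (counts scaled to library size) in lenti-TCF7L2 libraries, 25.6, 30.3 and 25.9 CPM in lenti-shTCF7L2 libraries and 40.0, 36.4 and 34.1 CPM in lenti-NC libraries. The overexpression was called (3.92-fold, adjusted p = 8.46e-04), whereas the hairpin libraries lay below the control libraries without a call (0.741-fold, adjusted p = 0.511). Lenti-TCF7L2 replicate 3 stood apart: genes over 8000 bases long had a median log2 difference of -0.98 from the control mean there and genes up to 1000 bases one of 0.49, against -0.33 to 0.05 and -0.07 to 0.14 in the other 8 libraries. Genes of 1000 to 2000 bases, the range of most class I members, had a median of 0.29 there and -0.01 to 0.1 in the other 8. Marker sums moved with the overexpression too. The 18 macrophage markers summed to 113.9 to 121.7 CPM in lenti-TCF7L2, 64.6 to 67.9 CPM in lenti-shTCF7L2 and 63.0 to 67.9 CPM in lenti-NC libraries. Of the 13 tested, 9 were called higher in lenti-TCF7L2 than in lenti-NC (69.2%, where 31.8% of all genes were called, 18% higher). C1qa, C1qb, C1qc and Cd163 reached at most 4 counts in any library. The 15 endothelial markers summed to 941.5 to 1117.8, 568.4 to 578.9 and 662.6 to 689.6 CPM in the same order of groups, the 12 fibroblast markers to 38938.6 to 46444.7, 37896.3 to 40000.1 and 35384.3 to 36363.6 CPM, and the 9 cardiomyocyte markers listed (of 10) to 19379.4 to 24017.4, 40304.3 to 40744.2 and 42808.6 to 43826.4 CPM. Eng was the largest part of the endothelial sum (366.5 to 684.9 CPM) and Col1a1 of the fibroblast sum (17751.1 to 24062.0 CPM). With TCF7L2, 13 of 15 endothelial markers were called higher (86.7%, where 31.8% of all genes were called, 18% higher), at a median log2 difference of 1.78. With the hairpin, 10 of 12 fibroblast markers had a negative difference (median -0.64), as had 5669 of 11761 genes tested, while their sum lay above that of lenti-NC. In bulk RNA, more cells of a type and more RNA per cell cannot be told apart, and the part of these shifts in the results on MHC genes was not tested.

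These cultures expressed class I far above class II. Per length and library size, summed class I reached 658.2 ± 84.2 FPKM (reads scaled to gene length and library size) in lenti-TCF7L2, 371.5 ± 21.6 FPKM in lenti-shTCF7L2 and 540.0 ± 16.7 FPKM in lenti-NC libraries (SD, n = 3 each). Summed class II reached 13.3 ± 1.41, 17.0 ± 0.504 and 17.0 ± 1.01 FPKM in the same groups. In lenti-NC libraries the most abundant member was B2m at 324.5 ± 9.88 FPKM, followed by Psme1, a subunit of the proteasome activator, at 130.2 ± 6.98 FPKM. Among class I genes, RT1-A1 led at 88.2 ± 2.38 FPKM, before RT1-A at 65.0 ± 1.53, RT1-A2 at 59.4 ± 2.48 and RT1-CE16 at 47.7 ± 3.07 FPKM. RT1-Bb was the highest class II gene, at 7.22 ± 0.505 FPKM.

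Of the 61 members, 45 had enough counts to be tested: 30 class I genes, 4 class II genes and all but Ciita and Cd74 of the rest. The 9 class I genes set aside reached at most 9.34 counts in any library and the 5 class II genes at most 4. Class I genes are near-identical copies, and the authors' counting shared reads among them: only 3.56% of class I values above 0 were whole numbers within 0.005, against 72.9% for class II genes and 84.3% for all genes. A single class I gene's value is therefore uncertain, and the rat whose genome defines these rows is another strain than SD, whose RT1 alleles the labels do not give. The 39 class I genes were for this reason also summed. Rows that share reads are not separate observations, and the shares of all genes given beside counts of members do not allow for that.

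Summed class I was highest with TCF7L2 and lowest with the hairpin. The sums were 853.3, 885.3 and 1091.7 CPM in lenti-TCF7L2 libraries, 556.0, 492.9 and 541.2 CPM in lenti-shTCF7L2 libraries and 768.9, 812.3 and 802.5 CPM in lenti-NC libraries. The 3 groups did not overlap, and the highest value was that of lenti-TCF7L2 replicate 3. The mean was 1.19 times the lenti-NC mean in lenti-TCF7L2 and 0.667 times in lenti-shTCF7L2. Summed class II without RT1-Bb, in contrast, was 11.8 to 14.0 CPM in lenti-TCF7L2, 9.36 to 11.4 CPM in lenti-shTCF7L2 and 11.2 to 12.5 CPM in lenti-NC libraries, with overlap between neighbouring groups.

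**Figure D1:**
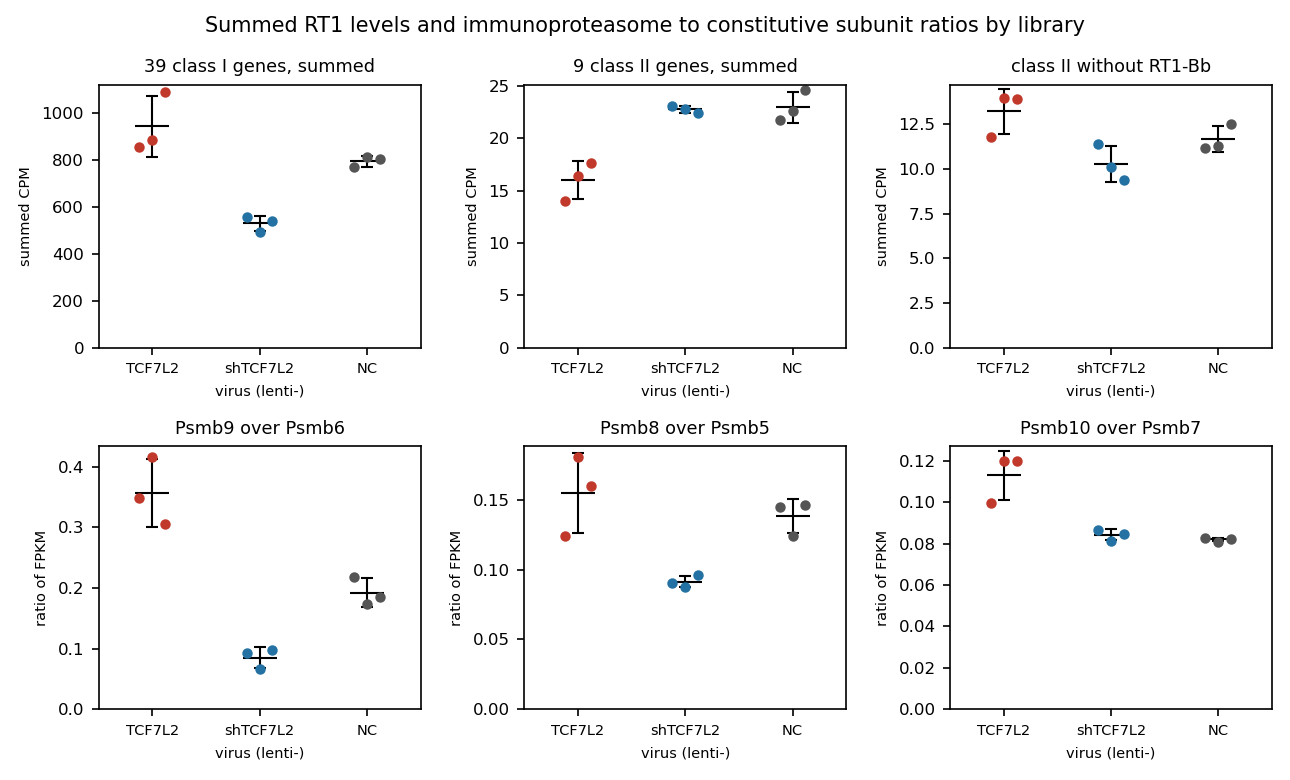
Summed CPM of the 39 class I genes, of the 9 class II genes and of class II without RT1-Bb (upper row), and ratios of FPKM of the immunoproteasome subunits to the constitutive subunits they replace (lower row), by virus group. Points are libraries, and bars are the mean and SD of 3; class I and the Psmb9 ratio separate all 3 groups, while the class II sum is lower in lenti-TCF7L2 libraries with RT1-Bb counted and not without it.

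Overexpressed TCF7L2 was set against the vector control to see how the factor alters expression in these cells. Among the 45 tested members, 15 rose and 4 fell (42.2%), where 31.8% of all 11761 genes tested were called, 18% higher and 13.8% lower. The lenti-TCF7L2 libraries lay wholly above the lenti-NC libraries for 22 members and wholly below for 4, as for 24.9% and 22% of all genes tested. The median log2 difference of the members was 0.27, against 0.03 over all genes tested. By role, 9 of 30 class I genes, 3 of 5 transport and loading genes and 3 of 5 immunoproteasome genes rose, while 3 class I genes and the class II gene RT1-Bb fell. With the length trend taken out, the member median was 0.09, against -0.04 over all genes, and 11 members rose and 5 fell where 38.6% of all genes were called. Over the 20 alternative settings, 8 of the 15 higher and all 4 lower members stayed called, and RT1-CE3 did so in the 17 that could fit it. The other 6, RT1-A3, RT1-CE1, RT1-CE14, RT1-CE15, Psmb10 and Psme2, lost the call when single libraries were left out.

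**Figure D2:**
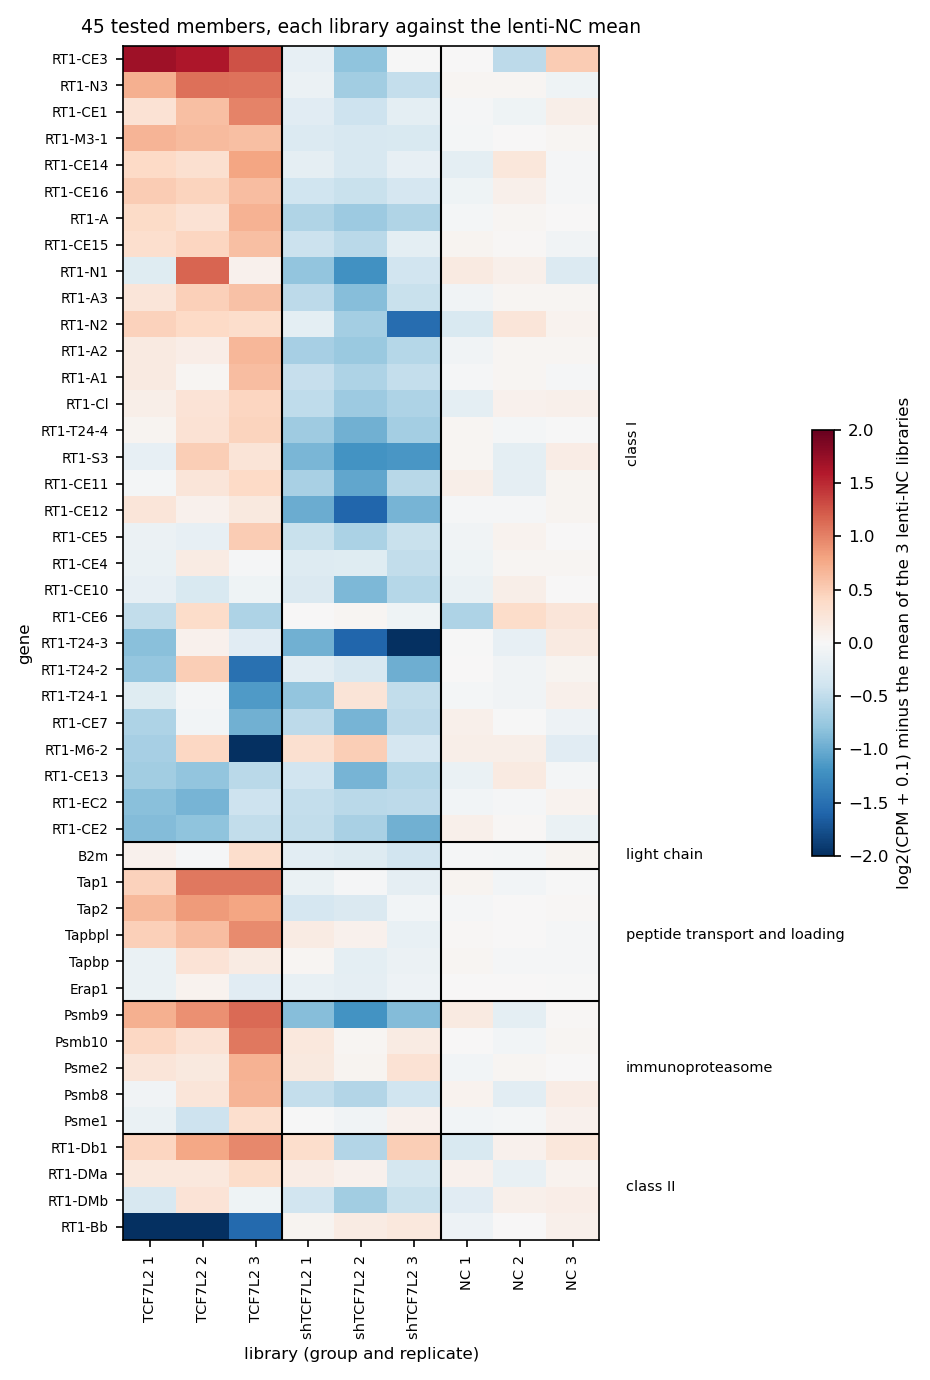
Log2(CPM + 0.1) of the 45 tested members in each library minus the mean of the 3 lenti-NC libraries, by role and, within a role, by the difference between lenti-TCF7L2 and lenti-NC; colours are held at 2 either way. The lenti-TCF7L2 columns are mostly red for class I, Tap1, Tap2, Tapbpl and Psmb9 with blue class I rows at the foot of their block (10 of 30 have a difference below 0, and 3 of these are called), the lenti-shTCF7L2 columns are mostly blue for class I, and RT1-Bb is deep blue in lenti-TCF7L2 alone.

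RT1-A bears the name of the classical class I locus of the rat, and its row matched no RefSeq gene. It had 139.5, 130.3 and 172.2 CPM in lenti-TCF7L2 libraries, 70.0, 64.8 and 70.5 CPM in lenti-shTCF7L2 libraries and 104.1, 109.3 and 106.8 CPM in lenti-NC libraries. All 3 lenti-TCF7L2 libraries lay above all others. The difference between lenti-TCF7L2 and lenti-NC was 0.47 ± 0.10 (log2, SE; edgeR quasi-likelihood test, adjusted p = 0.00865), and it was 0.32 without lenti-TCF7L2 replicate 3 and 0.23 with the length trend also taken out, called each time. RT1-CE16 had 75.7, 72.8 and 81.7 CPM in lenti-TCF7L2, 40.5, 39.1 and 42.1 CPM in lenti-shTCF7L2 and 50.3, 57.1 and 52.6 CPM in lenti-NC libraries. Again no lenti-TCF7L2 library overlapped the control libraries, with a log2 difference of 0.52 ± 0.08 (adjusted p = 0.00143).

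Of the 10 tested class I genes with RT1-M, RT1-N, RT1-S or RT1-T symbols, 2 rose (20%, near the 18% of all genes) and none fell. They are part of the non-classical genes, which vary less between individuals and mostly serve special ligands or receptors. RT1-N3 had 19.2, 25.2 and 24.9 CPM in lenti-TCF7L2, 10.8, 7.17 and 8.43 CPM in lenti-shTCF7L2 and 12, 12.1 and 11.1 CPM in lenti-NC libraries. With a log2 difference of 0.97 ± 0.16 between lenti-TCF7L2 and lenti-NC (adjusted p = 0.00228), the 2 groups were far apart. RT1-M3-1, whose mouse counterpart presents peptides with a formylated start, had 10.8, 10.5 and 10.3 CPM in lenti-TCF7L2, 5.54, 5.35 and 5.44 CPM in lenti-shTCF7L2 and 6.59, 6.74 and 6.89 CPM in lenti-NC libraries. The groups did not overlap, and the difference was 0.65 ± 0.09 (adjusted p = 0.00108). RT1-CE3, a scarce gene, had 30.91, 28.95 and 23.96 expected counts in lenti-TCF7L2, 6.58, 3.96 and 8.31 in lenti-shTCF7L2 and 7.94, 5.21 and 12.13 in lenti-NC libraries. The groups of TCF7L2 and control did not overlap (log2 difference 1.62 ± 0.33, adjusted p = 0.0056), at counts where a single read weighs much.

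The calls of RT1-A3, RT1-CE1, RT1-CE14 and RT1-CE15 depended on the libraries in the fit. RT1-A3 had 30.8, 36.5 and 39.4 CPM in lenti-TCF7L2, 18.2, 14.4 and 19.2 CPM in lenti-shTCF7L2 and 24.9, 26.7 and 26.7 CPM in lenti-NC libraries. RT1-CE1 had 4.85, 6.04 and 8.01 CPM in lenti-TCF7L2, 3.37, 2.93 and 3.45 CPM in lenti-shTCF7L2 and 3.90, 3.71 and 4.28 CPM in lenti-NC libraries. In both genes each lenti-TCF7L2 library exceeded each control library (log2 differences 0.45 ± 0.13, adjusted p = 0.0286, and 0.67 ± 0.19, adjusted p = 0.026). RT1-CE14 had 19.5, 18.4 and 25.5 CPM in lenti-TCF7L2, 12.9, 11.7 and 13.1 CPM in lenti-shTCF7L2 and 12.8, 17.2 and 14.4 CPM in lenti-NC libraries. RT1-CE15 had 10.6, 11.3 and 12.8 CPM in lenti-TCF7L2, 6.2, 5.74 and 7.30 CPM in lenti-shTCF7L2 and 8.68, 8.56 and 7.96 CPM in lenti-NC libraries. Their differences from lenti-NC were 0.52 ± 0.15 (adjusted p = 0.0325) and 0.46 ± 0.12 (adjusted p = 0.0212), again with no overlap. Leaving out any 1 of the lenti-NC libraries removed the calls of RT1-A3, RT1-CE1 and RT1-CE15, and leaving out lenti-NC replicate 1 or 3, any lenti-shTCF7L2 library or lenti-TCF7L2 replicate 1 removed that of RT1-CE14; RT1-A3 also lost it without lenti-shTCF7L2 replicate 1. Their values there ran from 0.41 to 0.46 for RT1-A3, 0.62 to 0.73 for RT1-CE1, 0.42 to 0.56 for RT1-CE14 and 0.42 to 0.48 for RT1-CE15. Without lenti-TCF7L2 replicate 3 the calls held, at 0.35, 0.44, 0.34 and 0.36 for RT1-A3, RT1-CE1, RT1-CE14 and RT1-CE15. With the length trend taken out, RT1-A3 (0.28), RT1-CE14 (0.35) and RT1-CE15 (0.26) lost the call and RT1-CE1 (0.46) did not.

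While 20 of the 30 tested class I genes had a positive difference and 10 a negative one, 3 were called lower with TCF7L2. RT1-EC2 had 24.4, 22.8 and 32.6 CPM in lenti-TCF7L2, 31.5, 30.1 and 30.5 CPM in lenti-shTCF7L2 and 42.0, 43.0 and 46.1 CPM in lenti-NC libraries. RT1-CE2 had 5.23, 5.46 and 6.87 CPM in lenti-TCF7L2, 6.86, 6.13 and 4.91 CPM in lenti-shTCF7L2 and 10.4, 9.84 and 8.82 CPM in lenti-NC libraries. RT1-CE13 had 8.76, 8.20 and 9.68 CPM in lenti-TCF7L2, 10.8, 7.37 and 9.49 CPM in lenti-shTCF7L2 and 12.9, 16.0 and 13.8 CPM in lenti-NC libraries. In each, all lenti-NC libraries lay above all lenti-TCF7L2 and all lenti-shTCF7L2 libraries. The log2 differences between lenti-TCF7L2 and lenti-NC were -0.71 ± 0.13 for RT1-EC2 (adjusted p = 0.00341), -0.73 ± 0.16 for RT1-CE2 (adjusted p = 0.00866) and -0.68 ± 0.16 for RT1-CE13 (adjusted p = 0.0103). With lenti-TCF7L2 replicate 3 left out they were -0.91, -0.88 and -0.77, so that library had the smallest drop.

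The make-up of the class I sum shifted accordingly. RT1-EC2 made 2.81 ± 0.21% of all class I counts in lenti-TCF7L2, 5.80 ± 0.267% in lenti-shTCF7L2 and 5.5 ± 0.227% in lenti-NC libraries (SD, n = 3 each). RT1-CE13 made 0.948 ± 0.0709%, 1.74 ± 0.226% and 1.79 ± 0.161% in the same groups, and RT1-CE2 0.619 ± 0.00838%, 1.12 ± 0.192% and 1.22 ± 0.128%. For these 3 genes the shares in lenti-TCF7L2 lay below all other libraries, while those of lenti-shTCF7L2 and lenti-NC overlapped. RT1-A, in turn, made 15.6 ± 0.821% in lenti-TCF7L2, 12.9 ± 0.294% in lenti-shTCF7L2 and 13.4 ± 0.11% in lenti-NC libraries, and RT1-N3 2.45 ± 0.334%, 1.65 ± 0.257% and 1.48 ± 0.0918%. RT1-CE16 and RT1-CE13 went opposite ways with TCF7L2, and the 60 bases shown for each hold both motifs. Those stretches were cut around GGGATTCCC, which begins 130 bases before the start in RT1-CE16 and 124 in RT1-CE13. The part of these letters in the changes was not tested.

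**Figure D3:**
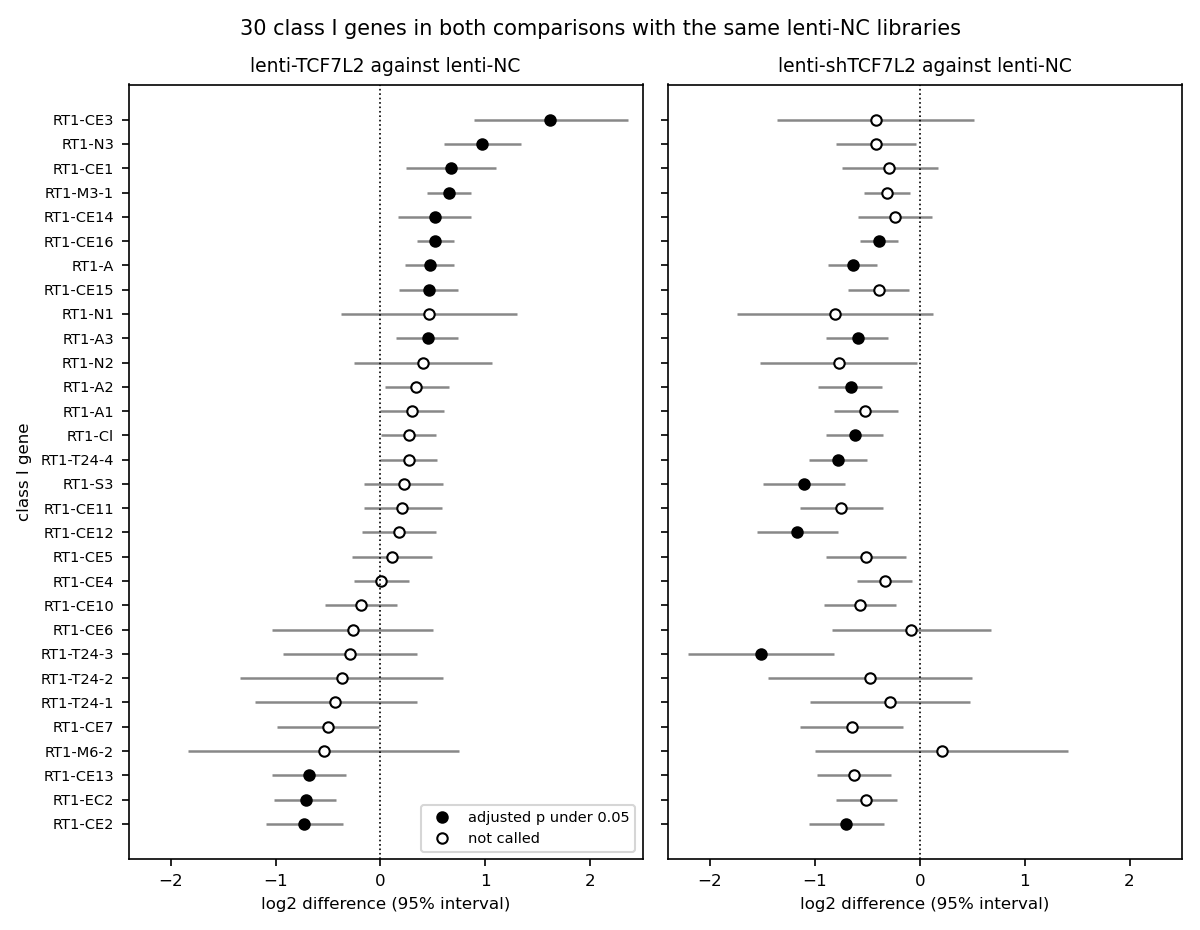
Log2 differences of the 30 tested class I genes between lenti-TCF7L2 and lenti-NC (left) and between lenti-shTCF7L2 and lenti-NC (right), with 95% intervals of the fit; filled points passed the adjusted threshold. Both panels use the same lenti-NC libraries; on the left 9 genes are called above 0 and 3 below, and on the right 10 are called, all below 0.

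The remaining 18 tested class I genes were not called between lenti-TCF7L2 and lenti-NC. The 2 most abundant of them leaned upward: RT1-A1 had 158.6, 144.1 and 215.6 CPM in lenti-TCF7L2, 101.6, 91.5 and 100.6 CPM in lenti-shTCF7L2 and 138.3, 144.6 and 137.7 CPM in lenti-NC libraries, and RT1-A2 had 106.1, 103.1 and 149.1 CPM, 59.1, 55.9 and 63.0 CPM, and 89.5, 96.3 and 96.5 CPM in the same groups. Their differences from lenti-NC were 0.30 ± 0.13 (adjusted p = 0.117) and 0.34 ± 0.13 (adjusted p = 0.0804), led by lenti-TCF7L2 replicate 3, and without that library they were 0.09 and 0.13. RT1-CE4, RT1-CE6, RT1-CE7, RT1-CE10, RT1-M6-2, RT1-T24-1 and RT1-T24-2 were called in no comparison, with differences of -0.54 to 0.01 here. B2m, the shared light chain, had 650.7, 598.1 and 779.4 CPM in lenti-TCF7L2, 528.1, 510.4 and 467.5 CPM in lenti-shTCF7L2 and 602.7, 596.0 and 631.3 CPM in lenti-NC libraries. Its lenti-TCF7L2 and lenti-NC libraries overlapped, and the difference was 0.15 ± 0.10 (adjusted p = 0.285; 95% interval -0.08 to 0.38).

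**Figure D4:**
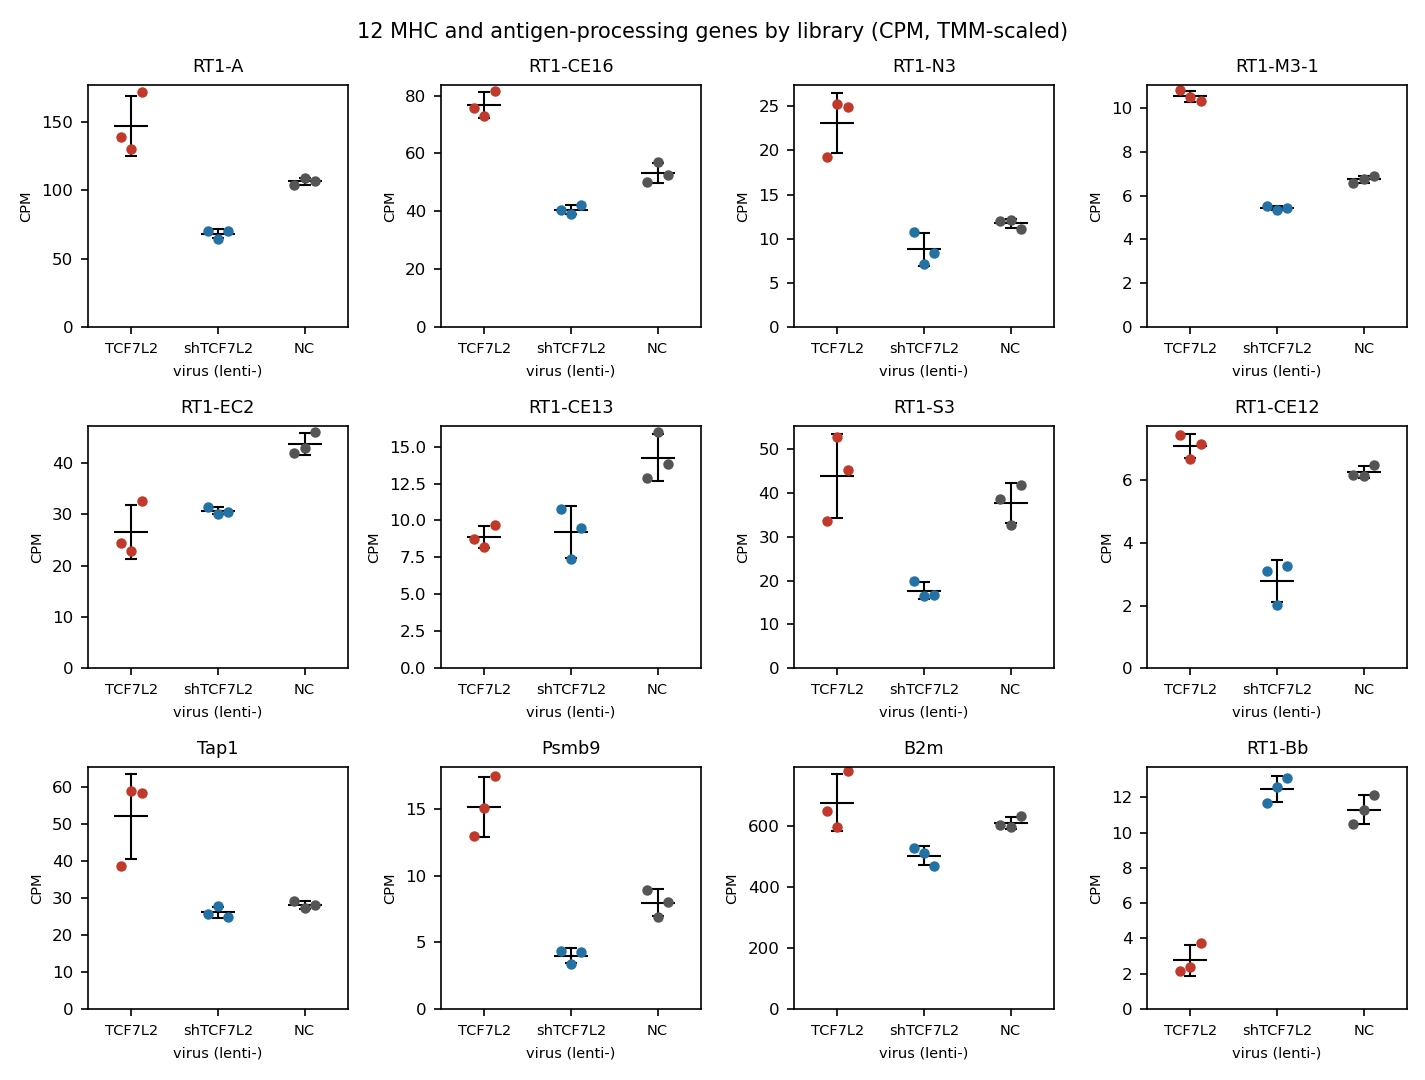
CPM of 12 members in each library by virus group; points are libraries, and bars are the mean and SD of 3, with every axis starting at 0. RT1-A, RT1-CE16, RT1-N3, RT1-M3-1, Tap1 and Psmb9 are highest in lenti-TCF7L2 libraries, RT1-EC2 and RT1-CE13 highest in lenti-NC, RT1-S3 and RT1-CE12 lowest in lenti-shTCF7L2, and RT1-Bb lowest in lenti-TCF7L2.

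The peptide transporter rose with TCF7L2. Tap1 had 38.7, 58.9 and 58.5 CPM in lenti-TCF7L2, 25.8, 27.8 and 24.8 CPM in lenti-shTCF7L2 and 29.2, 27.2 and 28.1 CPM in lenti-NC libraries. Tap2, its partner in the transporter, had 32.2, 37.1 and 35.5 CPM in lenti-TCF7L2, 16.3, 16.8 and 19.8 CPM in lenti-shTCF7L2 and 20.2, 20.7 and 20.8 CPM in lenti-NC libraries. Tapbpl, which edits the bound peptide outside the loading complex, had 29.9, 32.7 and 41.1 CPM in lenti-TCF7L2, 24.1, 22.6 and 19.4 CPM in lenti-shTCF7L2 and 21.7, 21.5 and 21.0 CPM in lenti-NC libraries. In all 3 genes every lenti-TCF7L2 library exceeded every other library. The log2 differences from lenti-NC were 0.89 ± 0.15 for Tap1 (adjusted p = 0.00273), 0.76 ± 0.10 for Tap2 (adjusted p = 7.32e-04) and 0.69 ± 0.13 for Tapbpl (adjusted p = 0.00456). The other loading genes were not called: Tapbp had 57.9 to 76.5 CPM in lenti-TCF7L2, 55.5 to 64.9 CPM in lenti-shTCF7L2 and 62.4 to 65.0 CPM in lenti-NC libraries, and Erap1 71.5 to 87.9, 74.0 to 78.2 and 84.0 to 84.2 CPM, with overlap of the lenti-TCF7L2 and lenti-NC libraries and no call in any comparison.

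Among immunoproteasome genes, Psmb9 moved most. It had 13.0, 15.1 and 17.5 CPM in lenti-TCF7L2, 4.36, 3.39 and 4.31 CPM in lenti-shTCF7L2 and 8.95, 6.94 and 8.02 CPM in lenti-NC libraries. The 3 groups did not overlap, and the log2 difference between lenti-TCF7L2 and lenti-NC was 0.93 ± 0.16 (adjusted p = 0.00232). Psmb8 had 13.4, 16.6 and 22.4 CPM in lenti-TCF7L2, 10.1, 9.26 and 10.6 CPM in lenti-shTCF7L2 and 14.7, 12.1 and 15.5 CPM in lenti-NC libraries. Its lenti-TCF7L2 and lenti-NC libraries overlapped (0.31 ± 0.18, adjusted p = 0.225), although it is the third subunit of the same inducible core. Psmb10 had 12.9, 11.8 and 20.3 CPM in lenti-TCF7L2, 11.2, 9.97 and 10.9 CPM in lenti-shTCF7L2 and 9.69, 9.36 and 10.0 CPM in lenti-NC libraries, and Psme2, of the proteasome activator, 60.7, 59.0 and 83.2 CPM, 58.8, 53.4 and 62.8 CPM, and 49.6, 52.6 and 51.6 CPM. Lenti-TCF7L2 replicate 3 was the highest library for both. The differences from lenti-NC were 0.63 ± 0.19 for Psmb10 (adjusted p = 0.0359) and 0.40 ± 0.13 for Psme2 (adjusted p = 0.047). Leaving out any 1 lenti-shTCF7L2 or lenti-NC library ended both calls, and Psme2 lost it also without lenti-TCF7L2 replicate 1, at 0.60 to 0.65 and 0.37 to 0.46. Without lenti-TCF7L2 replicate 3 the differences were 0.33 for Psmb10 and 0.20 for Psme2, both called. Psme2 lost its call in 13 of the 20 alternatives, RLE scaling, both other filters and the length correction (0.20) among them. Psme1, its partner, was called in no comparison of the fit on 9 libraries, at 100.5 to 168.9 CPM in lenti-TCF7L2, 128.3 to 142.7 CPM in lenti-shTCF7L2 and 129.4 to 142.8 CPM in lenti-NC libraries. It was called lower in lenti-TCF7L2 than in lenti-NC without lenti-TCF7L2 replicate 3 (-0.29, adjusted p = 0.0124; -0.28 and adjusted p = 0.0142 against lenti-shTCF7L2) and with the length trend taken out (-0.27, adjusted p = 0.0194).

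The immunosubunits replace constitutive subunits in the proteasome core, and ratios of FPKM set each against its counterpart in the same library. Psmb9 over Psmb6 was 0.349, 0.417 and 0.306 in lenti-TCF7L2, 0.0924, 0.0655 and 0.0969 in lenti-shTCF7L2 and 0.219, 0.173 and 0.185 in lenti-NC libraries, without overlap. Psmb10 over Psmb7 was 0.0995, 0.12 and 0.12 in lenti-TCF7L2, 0.0868, 0.0813 and 0.0848 in lenti-shTCF7L2 and 0.0827, 0.081 and 0.0823 in lenti-NC libraries, so that lenti-TCF7L2 stood above the other groups, replicate 3 included. Psmb8 over Psmb5 was 0.155 ± 0.0288 in lenti-TCF7L2, 0.0915 ± 0.00409 in lenti-shTCF7L2 and 0.138 ± 0.0128 in lenti-NC libraries, the first overlapping the last. Psmb5, Psmb6 and Psmb7 themselves were called in no comparison, with log2 differences of 0.07 to 0.16 between lenti-TCF7L2 and lenti-NC and 0.10 to 0.21 between lenti-shTCF7L2 and lenti-NC. Of the 17 tested constitutive subunits and other activators, none rose and 1 fell with TCF7L2 (5.88%, against 31.8% of all genes), Psme4, an activator of the spermatoproteasome (-0.75 ± 0.08, adjusted p = 2.65e-04).

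Class II showed a single change. RT1-Bb, the beta chain of the RT1.B molecule, had 34.17, 38.26 and 63.00 expected counts in lenti-TCF7L2 libraries, 178.26, 194.22 and 196.68 in lenti-shTCF7L2 libraries and 155.70, 168.18 and 180.58 in lenti-NC libraries. The lenti-TCF7L2 libraries were far below all others, and the lenti-shTCF7L2 and lenti-NC libraries overlapped. The level in lenti-TCF7L2 was 0.247-fold that of lenti-NC (log2 difference -2.02 ± 0.19, adjusted p = 1.50e-04), the largest difference in size of any tested member, and over the 20 alternatives it ran from -2.41 to -1.55. Between lenti-shTCF7L2 and lenti-NC it was 0.14 ± 0.17 (adjusted p = 0.802). RT1-Ba, the alpha chain that RT1-Bb needs as a partner, had 0 to 4 counts in any library.

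The rest of the class II machinery was scarce. Cd74, the invariant chain, had 2, 4 and 5 expected counts in lenti-TCF7L2, 11.01, 4 and 11 in lenti-shTCF7L2 and 4.01, 8 and 9 in lenti-NC libraries. Ciita, the master regulator of class II, had 2, 2 and 1 counts in lenti-TCF7L2, 6, 4 and 3 in lenti-shTCF7L2 and 5, 4 and 6 in lenti-NC libraries. Both genes were set aside by the filter on low counts. In the edgeR fit without that filter, none of the 16 members set aside was called in any comparison, and the adjusted p between lenti-TCF7L2 and lenti-NC was 0.054 for Ciita and 0.221 for Cd74; at an unadjusted p under 0.05 there were 2 of the 16 between lenti-TCF7L2 and lenti-NC, 1 between lenti-shTCF7L2 and lenti-NC and 3 between lenti-TCF7L2 and lenti-shTCF7L2. RT1-DMa and RT1-DMb, the chains of the peptide editor of class II, had 7.37 to 8.25 and 3.65 to 5.53 CPM in lenti-TCF7L2, 4.98 to 7.06 and 2.80 to 3.50 CPM in lenti-shTCF7L2 and 5.73 to 6.79 and 3.90 to 5.01 CPM in lenti-NC libraries. Neither was called in any comparison, nor was RT1-Db1, a beta chain of the RT1.D molecule, at 4 to 16 counts. Of 10 dendritic cell markers, Itgax, Xcr1, Cd209a and Siglech had no row in any library, so no value was measured for them. Clec9a had 8, 8 and 13 counts in lenti-TCF7L2, 0, 1 and 0 in lenti-shTCF7L2 and 0, 0 and 2 in lenti-NC libraries, and Batf3 had 9, 11 and 11, 2, 1 and 1, and 1, 1 and 5 counts in the same groups. Zbtb46, the most abundant of the list, had 89 to 177 counts in lenti-TCF7L2, 90 to 108 in lenti-shTCF7L2 and 125 to 146 in lenti-NC libraries. The list summed to 7.41 to 12.8 CPM in lenti-TCF7L2, 6.26 to 7.57 CPM in lenti-shTCF7L2 and 8.89 to 10.2 CPM in lenti-NC libraries. The 3 of 7 B cell markers that were listed summed to at most 1.28 CPM. Macrophage markers were higher with TCF7L2 and cardiomyocyte markers lower, as given above with their sums, and their part in the fall of RT1-Bb was not tested.

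The hairpin virus was set against the same vector control libraries. The drop of Tcf7l2 itself was not called there, as given above. Effects of lowered TCF7L2 and of the hairpin virus itself cannot be told apart in this comparison. Among the 45 tested members none rose and 11 fell (24.4%; edgeR, with 0 higher at an unadjusted p under 0.05 as well and 0 by DESeq2), where 3.64% of all genes tested were called, 1.32% higher and 2.32% lower. All lenti-shTCF7L2 libraries lay below all lenti-NC libraries for 30 of the 45 members and above them for 1, as for 21% and 19.9% of all genes tested. The member median was -0.42, against 0.01 over all genes tested. Of the 11, 10 were class I genes and 1 was Psmb9. Among the 30 class I genes, 29 had a negative difference and 24 had no overlap between the groups, with a median of -0.54. As class I rows share reads, these are not 30 separate observations. None of the 5 transport and loading genes was called, and their differences ran from -0.22 to 0.04.

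Among the genes that fell were RT1-S3, RT1-T24-3, RT1-T24-4 and RT1-CE12. RT1-S3 had 33.7, 52.9 and 45.2 CPM in lenti-TCF7L2, 19.9, 16.4 and 16.7 CPM in lenti-shTCF7L2 and 38.7, 32.8 and 41.9 CPM in lenti-NC libraries. RT1-T24-3 had 4.92, 9.40 and 7.53 CPM in lenti-TCF7L2, 4.49, 2.87 and 1.99 CPM in lenti-shTCF7L2 and 8.81, 7.88 and 10.0 CPM in lenti-NC libraries. RT1-T24-4 had 23.6, 27.8 and 31.2 CPM in lenti-TCF7L2, 13.9, 11.7 and 14.2 CPM in lenti-shTCF7L2 and 23.5, 22.3 and 22.7 CPM in lenti-NC libraries. In each of the 3, the hairpin libraries lay below every control library, and the log2 differences were -1.10 ± 0.17 for RT1-S3 (adjusted p = 0.0109), -1.51 ± 0.31 for RT1-T24-3 (adjusted p = 0.0297) and -0.78 ± 0.12 for RT1-T24-4 (adjusted p = 0.0113). RT1-CE12 had 7.44, 6.67 and 7.17 CPM in lenti-TCF7L2, 3.10, 2.02 and 3.25 CPM in lenti-shTCF7L2 and 6.19, 6.13 and 6.48 CPM in lenti-NC libraries, a difference of -1.17 ± 0.17 (adjusted p = 0.00923). Its hairpin libraries held the lowest values by a wide gap, and the groups did not overlap.

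The other 6 class I genes called lower were RT1-A, RT1-A2, RT1-A3, RT1-Cl, RT1-CE16 and RT1-CE2. RT1-A, at the CPM given above, differed by -0.64 ± 0.10 (adjusted p = 0.0116), RT1-A2 by -0.66 ± 0.14 (adjusted p = 0.0309) and RT1-A3 by -0.59 ± 0.13 (adjusted p = 0.0446). RT1-Cl had 45.4, 50.6 and 56.3 CPM in lenti-TCF7L2, 29.6, 25.3 and 27.3 CPM in lenti-shTCF7L2 and 36.7, 44.7 and 45.1 CPM in lenti-NC libraries, a difference of -0.62 ± 0.12 (adjusted p = 0.0223). RT1-CE16 differed by -0.39 ± 0.08 (adjusted p = 0.0293) and RT1-CE2 by -0.70 ± 0.16 (adjusted p = 0.0494). In all 6 genes the hairpin and control libraries did not overlap. Each lost its call in some alternatives, from 5 of 20 for RT1-A to 10 of 20 for RT1-CE2. RT1-A1 at -0.52 ± 0.14 (adjusted p = 0.082) and RT1-EC2 at -0.51 ± 0.13 (adjusted p = 0.072) were not called. These comparisons share the lenti-NC libraries with those of overexpression.

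Psmb9 fell to 4.02 ± 0.546 CPM in lenti-shTCF7L2 libraries, against 7.97 ± 1.01 CPM in lenti-NC libraries (SD, n = 3 each), a log2 difference of -0.99 ± 0.17 (adjusted p = 0.0148). Psmb8 (-0.50 ± 0.19, adjusted p = 0.228) and B2m (-0.28 ± 0.10, adjusted p = 0.201) lay below the control libraries in all 3 hairpin libraries without a call, and Psmb10 overlapped them (0.14 ± 0.20, adjusted p = 0.847). None of the 11 calls between lenti-shTCF7L2 and lenti-NC held in all 20 alternatives. The number of members called depended on the libraries in the fit. It was 9, 14 and 22 without lenti-TCF7L2 replicate 1, 2 or 3, it was 3, 1 and 2 without lenti-shTCF7L2 replicate 1, 2 or 3, and it was 4, 3 and 0 without lenti-NC replicate 1, 2 or 3; in the last case edgeR gave 21 lower at an unadjusted p under 0.05, and DESeq2 was not run. With only the 6 libraries of the 2 groups, 27 of 43 tested members were called lower and 1 higher, Psme2, where 28.5% of all genes were called, 13% higher and 15.5% lower. Macrophage marker sums overlapped between lenti-shTCF7L2 and lenti-NC, as given above, with 2 of 13 called higher (15.4%). Of 12 fibroblast markers, 7 were called lower (58.3%), and none of the 9 cardiomyocyte markers was called. Over all genes tested, 3.64% were called in this comparison, 1.32% higher and 2.32% lower.

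Overexpression was also set against the hairpin directly, a comparison that does not use the control means. The control libraries still entered the fit through its filter, scaling and shared spread. Of the 45 members, 26 were higher and 1, RT1-Bb, was lower in lenti-TCF7L2 than in lenti-shTCF7L2 (60%), where 33.1% of all genes tested were called, 18.4% higher and 14.7% lower. With only the 6 libraries of these groups in the fit, 24 members were higher and 1 lower, where 22.7% of all genes were called. Without overlap, 30 members were higher and 1 lower, as were 24.1% and 23.2% of all genes tested. The member median was 0.75, against 0.00 over all genes tested. The 26 were 20 of 30 class I genes, Tap1, Tap2, Tapbpl, Psmb8, Psmb9 and B2m. Psmb9 differed by 1.92 ± 0.16 (3.78-fold, adjusted p = 6.31e-05), RT1-N3 by 1.39 ± 0.16 (adjusted p = 3.19e-04) and RT1-S3 by 1.32 ± 0.17 (adjusted p = 5.49e-04). RT1-A differed by 1.11 ± 0.10 (adjusted p = 9.77e-05) and B2m by 0.43 ± 0.10 (adjusted p = 0.011). RT1-Bb differed by -2.16 ± 0.19 (adjusted p = 6.98e-05). RT1-EC2, RT1-CE2 and RT1-CE13 overlapped between these groups, at -0.21 ± 0.13, -0.03 ± 0.16 and -0.05 ± 0.16, and were not called.

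Some class I genes were called here alone. RT1-A1, at the CPM given above, was among them, with a log2 difference of 0.82 (edgeR, adjusted p = 0.00187). It kept the call in all 20 alternatives. RT1-CE5 had 57.5, 55.8 and 89.4 CPM in lenti-TCF7L2, 45.7, 40.4 and 45.9 CPM in lenti-shTCF7L2 and 59.6, 65.6 and 62.6 CPM in lenti-NC libraries. RT1-CE11 had 7.81, 9.53 and 10.6 CPM in lenti-TCF7L2, 5.08, 3.85 and 5.44 CPM in lenti-shTCF7L2 and 8.68, 7.07 and 8.36 CPM in lenti-NC libraries. Their lenti-TCF7L2 libraries all exceeded the lenti-shTCF7L2 libraries, with differences of 0.62 ± 0.17 (adjusted p = 0.0215) and 0.96 ± 0.17 (adjusted p = 0.00282). The scarce RT1-N1 had 2.27, 6.16 and 2.87 CPM in lenti-TCF7L2, 1.52, 1.11 and 2.06 CPM in lenti-shTCF7L2 and 3.09, 2.90 and 2.21 CPM in lenti-NC libraries. RT1-N2 had 2.14, 2.03 and 1.97 CPM in lenti-TCF7L2, 1.32, 0.913 and 0.465 CPM in lenti-shTCF7L2 and 1.21, 1.82 and 1.60 CPM in lenti-NC libraries. Lenti-TCF7L2 replicate 2 was the high library of RT1-N1, whose difference of 1.26 ± 0.40 (adjusted p = 0.0384) lost its call in 7 of the 9 fits with 1 library left out, and was 0.71 without that library; RT1-N2 differed by 1.18 ± 0.31 (adjusted p = 0.019). RT1-CE5 lost its call without any 1 of the lenti-shTCF7L2 libraries (0.55 to 0.65), RT1-N2 without lenti-TCF7L2 replicate 1 or lenti-shTCF7L2 replicate 2 (1.14 to 1.18), RT1-T24-3 without lenti-shTCF7L2 replicate 2 or 3 (0.98 to 1.15), B2m without lenti-shTCF7L2 replicate 3 (0.38) and Psmb8 without lenti-shTCF7L2 replicate 2 (0.74).

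Genes that act around the members were counted on lists chosen with earlier results of these data known. Of 32 tested interferon-stimulated antiviral genes, none fell and 5 rose with TCF7L2 (15.6%, below the 18% of all genes called higher; median 0.49). With the hairpin 14 fell and none rose (43.8%, where 3.64% of all genes were called, 2.32% lower), at a median of -0.98. In lenti-TCF7L2 28 were higher and none lower than in lenti-shTCF7L2 (87.5%, where 33.1% of all genes were called, 18.4% higher), at a median of 1.48. Bst2, which tethers budding viruses, had 36.5, 45 and 56.0 CPM in lenti-TCF7L2, 13.7, 11.1 and 11.1 CPM in lenti-shTCF7L2 and 42.2, 40.9 and 40.8 CPM in lenti-NC libraries. Its hairpin libraries lay far below the others (-1.79 ± 0.16 against lenti-NC, adjusted p = 0.00123). Ifitm1, a membrane protein that blocks viral entry, had 264.3, 263.0 and 371.4 CPM in lenti-TCF7L2, 85.6, 76.1 and 82.6 CPM in lenti-shTCF7L2 and 143.6, 147.7 and 146.8 CPM in lenti-NC libraries. Its groups were fully apart, with differences of 1.04 ± 0.13 between lenti-TCF7L2 and lenti-NC (adjusted p = 5.67e-04) and 1.88 ± 0.13 between lenti-TCF7L2 and lenti-shTCF7L2 (adjusted p = 2.89e-05).

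Of 31 tested regulators of MHC transcription and interferon signalling, 11 rose and none fell with TCF7L2 (35.5%, where 18% of all genes were called higher and 13.8% lower). With the hairpin 1 fell (3.23%, near the 2.32% of all genes called lower). Between lenti-TCF7L2 and lenti-shTCF7L2, 16 were higher and 1 lower (54.8%, where 33.1% of all genes were called). Irf1, a direct activator of class I and Tap1 in human and mouse cells, had 35.1, 44.5 and 40.1 CPM in lenti-TCF7L2, 30.7, 29.1 and 29.9 CPM in lenti-shTCF7L2 and 28.7, 28.8 and 27.3 CPM in lenti-NC libraries. It rose with TCF7L2 (0.50 ± 0.10, adjusted p = 0.00483), while the hairpin libraries differed from lenti-NC by 0.08 ± 0.10 (adjusted p = 0.808). Irf7, an amplifier of type I interferon, had 54.9, 114.3 and 85.7 CPM in lenti-TCF7L2, 28.0, 17.6 and 20.6 CPM in lenti-shTCF7L2 and 69.3, 51.3 and 62.4 CPM in lenti-NC libraries. It was the regulator called lower with the hairpin (-1.47 ± 0.27, adjusted p = 0.0203), and its lenti-TCF7L2 and lenti-NC libraries overlapped (0.48 ± 0.26, adjusted p = 0.189).

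General folding and lysosomal genes moved in mixed ways. Of 12 tested loading chaperones and peptidases, 3 rose and 2 fell with TCF7L2 (41.7%, where 31.8% of all genes were called) and none was called with the hairpin (3.64% of all genes). Canx and Calr are chaperones that hold new heavy chains. Canx fell with TCF7L2 (-0.45 ± 0.08, adjusted p = 0.00239), with 583.4 to 687.5 CPM in lenti-TCF7L2 against 862.1 to 896.4 CPM in lenti-NC libraries, while Calr rose (0.40 ± 0.11, adjusted p = 0.0203), with 1355.1 to 1796.0 CPM in lenti-TCF7L2 against 1111.1 to 1190.8 CPM in lenti-NC libraries. Of 12 tested genes of class II processing and trafficking, 3 rose and 1 fell with TCF7L2 (33.3%, near the 31.8% of all genes) and none was called with the hairpin (3.64% of all genes). Among them Ctsh, a lysosomal peptidase, had 229.2 to 314.5 CPM in lenti-TCF7L2 against 169.3 to 200.7 CPM in lenti-NC libraries (0.47 ± 0.13, adjusted p = 0.0238), and Sppl2a, the protease that removes the Cd74 remnant, 9.14 to 20.2 CPM against 30.9 to 33.3 CPM (-0.98 ± 0.25, adjusted p = 0.0178). Lenti-TCF7L2 replicate 3 was the lowest library of Sppl2a.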

How the data were processed

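Each library came as a gene table. The authors' expected counts, which per the file headers are estimated numbers of reads per gene without normalisation, and the deposited FPKM values were used. Tools named in the submitters' notes, with no role stated, were RSEM 1.3.1, HISAT2, Bowtie2 and DESeq2 1.4.5, with build rn6. The labels' protocols describe poly(A) selection and BGISEQ-500 sequencing. Reads of near-identical genes appear as fractional counts.

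Genes absent from a table were set to 0. Counts were rounded, filtered with filterByExpr (11761 of 14607 genes kept), scaled by TMM and tested with edgeR 4.0.16 (quasi-likelihood, 2-sided, 9 libraries in 1 fit, group only, R 4.3.3), with Benjamini-Hochberg adjustment over all genes and a call at an adjusted p under 0.05. The fit was tested on simulated data. Errors of log2 differences are standard errors, and the biological coefficient of variation was 14.9%. CPM use TMM-scaled library sizes; FPKM were used as deposited for levels between genes. Promoter motifs were searched as cores of up to 9 letters.

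Members and lists were chosen with earlier results of these data known. Values per library are given for every member called in at least 1 comparison and for Ciita, Cd74 and B2m; the named genes of other lists are up to 3 per comparison with the smallest adjusted p, or 2 by mean CPM where none is called, with Irf1, Irf7, Psmb5, Psmb6 and Psmb7 whatever their result; 1 other gene of that rule is not reported here. Alternatives were RLE scaling, 2 other filters, DESeq2 1.42.0, limma 3.58.1 on log2(FPKM + 1) and log2(FPKM + 0.1), a replicate block, 6 libraries at a time, a length correction, and leaving out each library.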

Additional observations from a re-analysis of the deposited data

How the results depend on the processing

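In lenti-TCF7L2 against lenti-NC, 13 to 25 members were called over all alternatives against 19, and in lenti-TCF7L2 against lenti-shTCF7L2 23 to 31 against 27, each within 1.5 times. The 11 members called between lenti-shTCF7L2 and lenti-NC became 28 with only the 6 libraries compared, 19 with the length trend taken out, 27 when lenti-TCF7L2 replicate 3 was also left out (chosen after the data were seen), and 0 to 22 with 1 library left out; the cause was not tested. DESeq2 gave 16. With the replicate number as a block the count was 6; only 2 of 9 same-numbered pairs of libraries had deviations correlated above 0.1, so the numbers were not taken as pairs. No called difference of a member changed sign under any alternative. Of the uncalled differences, those of RT1-CE12 (-0.02), RT1-CE5 (-0.07), Tapbp (-0.05) and Erap1 (0.07) between lenti-TCF7L2 and lenti-NC, and of Tapbpl (-0.01) and Psme1 (-0.06) between lenti-shTCF7L2 and lenti-NC, changed sign with the length trend taken out. With lenti-TCF7L2 replicate 3 also left out, those of RT1-CE5 (-0.26, then called), Tapbp (-0.02), B2m (-0.08), Tapbpl (-0.02) and Psme1 (-0.08) did, and Psme1 (-0.01) with the stricter filter. With 1 library left out, differences crossed 0 between lenti-TCF7L2 and lenti-NC for Psme1 (-0.29, then called, to 0.11), RT1-CE5 (-0.16 to 0.23), RT1-DMb (-0.22 to 0.08) and RT1-N1 (-0.09 to 0.70), between lenti-shTCF7L2 and lenti-NC for Psme1 (-0.04 to 0.05), RT1-DMa (-0.12 to 0.11), RT1-Db1 (-0.07 to 0.48) and Tapbpl (-0.03 to 0.12), and between lenti-TCF7L2 and lenti-shTCF7L2 for Erap1 (-0.04 to 0.12), Psme1 (-0.28, then called, to 0.10), RT1-CE13 (-0.21 to 0.06) and RT1-CE2 (-0.16 to 0.07). The 7 class I genes called in no comparison were not followed singly. Ciita, Cd74 and RT1-Ba, at a few counts each, were not called in the fit without a filter, where depth limits what could be seen.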
